A study of Mus musculus with 6 samples.

Results

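The genes described here are 10 lipases of the lipid droplet and proteins that regulate them or carry their product: *Pnpla2*, *Lipe*, *Mgll*, *Abhd5*, *G0s2*, *Hilpda*, *Pnpla3*, *Ces1d*, *Ces1f* and *Aqp7*. They were chosen by name from the known steps of triglyceride breakdown, with earlier results of these data known. All 10 were found among the 19937 genes of the table, each with 1 probeset of its own. Gonadal white adipose tissue (GWAT) was taken at 4 months of age from chow-fed male *ob/ob/Fsp27*-/- mice, which lack both leptin and the lipid droplet protein Fsp27, and from *ob/ob* mice, which lack leptin alone. Both genotypes therefore share leptin deficiency, and both were on a C57BL/6J background. RNA was hybridized to 6 GeneChip Mouse Gene 1.0 ST arrays, 3 per genotype, and according to the methods the RNA of 3 mice was combined for each array, so n counts pools. The deposited values are Robust Multi-array Average (RMA) values, a normalized brightness on the log2 scale. On this scale a difference of 1 is a doubling, and no order of levels between genes can be read from it. A gene was called higher or lower when the adjusted p from limma was under 0.05 and the log2 fold change was at least 0.5 in size.

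White adipocytes store triglyceride in a lipid droplet and release it as fatty acids and glycerol. Adipose triglyceride lipase (ATGL, from *Pnpla2*) removes the first fatty acid, hormone-sensitive lipase (HSL, from *Lipe*) the next and monoglyceride lipase (from *Mgll*) the last, and glycerol leaves the cell through the channel aquaporin 7 (from *Aqp7*). CGI-58 (from *Abhd5*) activates ATGL, while the small proteins from *G0s2* and *Hilpda* inhibit it. Fsp27 promotes the formation of a single large droplet, and the comparison asks how the GWAT of leptin-deficient mice differs when it is absent.

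The medians of the 6 arrays lay between 6.02 and 6.10. Over the tested probesets, Pearson correlations between arrays of 1 genotype were at least 0.988 and between arrays of different genotypes at most 0.965, a description across probesets that are not independent. *Cidec*, which encodes Fsp27, read 11.34, 11.51 and 11.53 in *ob/ob/Fsp27*-/- GWAT, against 11.49, 11.78 and 11.98 in *ob/ob* GWAT, and did not pass the test (adjusted p = 0.157 from limma). Where its probes lie in the gene is not known here, so this reading does not check the labels. GWAT is a bulk tissue, in which fewer cells of a type and less RNA per cell cannot be told apart. *Adipoq*, the gene of the adipocyte hormone adiponectin, read 12.28, 12.32 and 12.48 in *ob/ob/Fsp27*-/- GWAT, against 10.59, 11.22 and 11.68 in *ob/ob* GWAT. It is 1 of 12 white adipocyte markers, of which 6 were called higher and 6 were not called.

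Of the 10 genes, 9 were higher in *ob/ob/Fsp27*-/- GWAT and none was lower, and *Hilpda* did not pass; the direction held when arrays were centred on their medians or on housekeeping genes and under cyclic loess, whereas centring on 12 white adipocyte markers left 2 higher and 1 lower and turned the sign of *Aqp7*. Among all genes, 9.58% were called higher and 10.8% lower in the deposited values. With white adipocyte centring these shares were 0.943% and 68.1%. The median log2 fold change of the 10 genes was 0.94, and that of all genes 0.06. At a log2 fold change of at least 1, *Ces1d*, *Pnpla3*, *Ces1f* and *G0s2* were called, 4 of 10, where 3.27% of all genes were. For the 9 higher genes all 3 *ob/ob/Fsp27*-/- arrays lay above all 3 *ob/ob* arrays, which was so for 25.3% of all genes, while the genotypes did not overlap in either direction for 46.0%.

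**Figure D1:**
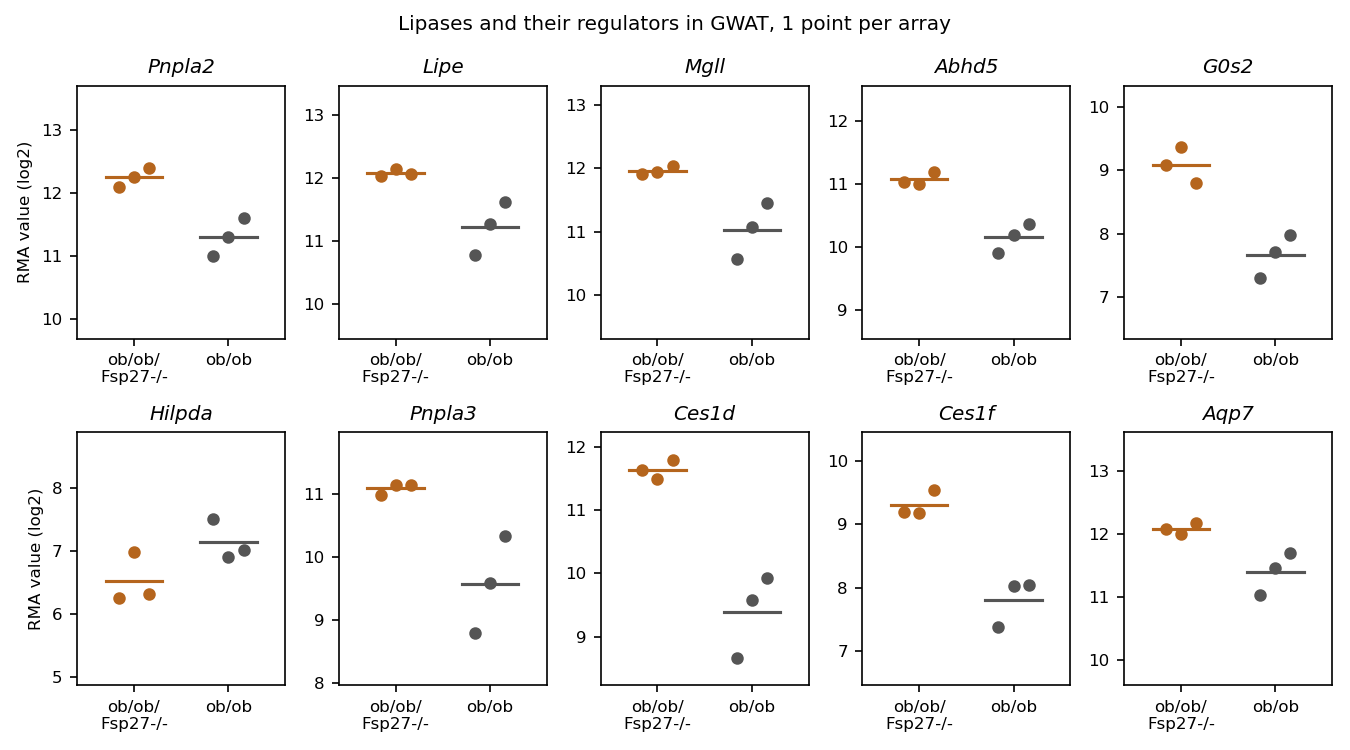
RMA values (log2) of the 10 genes, with 1 point per array and a bar at the mean of 3 arrays, brown for *ob/ob/Fsp27*-/- and grey for *ob/ob* GWAT. Each vertical axis spans the same range of log2 units around its own gene, so the distance between bars can be compared between panels but the level cannot. The genotypes overlap for *Hilpda* alone.

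*Pnpla2* (chr7:141455188-141460743; all gene positions are those of GRCm38.p6), the gene of the first lipase, was 1.93-fold higher in *ob/ob/Fsp27*-/- GWAT. Its RMA values were 12.10, 12.26 and 12.40 in *ob/ob/Fsp27*-/- mice, against 11.00, 11.30 and 11.60 in *ob/ob* mice. The lowest *ob/ob/Fsp27*-/- array stood 0.49 above the highest *ob/ob* array. The log2 fold change was 0.95 (standard error 0.16, 95% interval 0.57 to 1.33, adjusted p = 0.00461 from limma), which ranked 751 of 19937 genes from the largest rise down.

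*Abhd5* (chr9:122351616-122381524), the gene of the activator of ATGL, was 1.89-fold higher. It read 11.03, 11.00 and 11.19 in *ob/ob/Fsp27*-/- mice, against 9.91, 10.20 and 10.36 in *ob/ob* mice, with no overlap. Its change on the log2 scale was 0.92 (standard error 0.13, 95% interval 0.62 to 1.22, adjusted p = 0.00201 from limma). Within each array, *Pnpla2* minus *Abhd5* averaged 1.18 ± 0.097 (SD, n = 3 arrays) in *ob/ob/Fsp27*-/- and 1.15 ± 0.084 (SD, n = 3) in *ob/ob* GWAT, and the ranges overlapped. The changes of the enzyme and its activator differed by 0.03 on the log2 scale, a description with no test.

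The inhibitor genes differed, with *G0s2* called higher and *Hilpda* not called. *G0s2* (chr1:193272160-193273188) was 2.68-fold higher, with values of 9.09, 9.37 and 8.80 in *ob/ob/Fsp27*-/- mice, against 7.30, 7.71 and 7.98 in *ob/ob* mice. The lowest *ob/ob/Fsp27*-/- array lay 0.82 above the highest *ob/ob* array. On the log2 scale the change was 1.42 (standard error 0.20, 95% interval 0.94 to 1.91, adjusted p = 0.00232 from limma), rank 243 from the largest rise. *Pnpla2* minus *G0s2* was 3.002, 2.88 and 3.60 in *ob/ob/Fsp27*-/- mice, against 3.69, 3.59 and 3.62 in *ob/ob* mice. The mean difference was −0.47, so the inhibitor rose more than the lipase on average, but *ob/ob/Fsp27*-/- array 3 lay within the *ob/ob* range.

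*Hilpda* (chr6:29272488-29275449), the gene of the hypoxia-inducible inhibitor, was the only gene of the 10 with a negative value. It read 6.24, 6.98 and 6.32 in *ob/ob/Fsp27*-/- mice, against 7.50, 6.90 and 7.01 in *ob/ob* mice. The genotypes overlapped through *ob/ob/Fsp27*-/- array 2, which lay above *ob/ob* array 2. Its log2 difference of −0.62 (standard error 0.23, 95% interval −1.17 to −0.07) did not pass (adjusted p = 0.0900 from limma). Without *ob/ob/Fsp27*-/- array 2 it was −0.86 and passed (adjusted p = 0.0267 from limma), and the 6 fits that each leave out 1 array gave adjusted p from 0.0267 to 0.227.

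Promoter sequence is shown for the triglyceride lipase and its inhibitors, of which *Hilpda* was not called, and below for 3 genes whose promoters held a searched motif. The letters come from RefSeq (GRCm38.p6), which gave 12 promoters for 8 of the 10 genes and none for the carboxylesterases. Each run is 100 bases, 5′ to 3′ on the strand of the gene, ending at the base before a listed start site unless said otherwise, and capitals mark a motif.

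*Pnpla2*, chr7:141455088-141455187, plus strand: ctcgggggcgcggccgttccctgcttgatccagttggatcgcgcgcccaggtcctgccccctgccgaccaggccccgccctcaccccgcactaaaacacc
*G0s2*, chr1:193273189-193273288, minus strand: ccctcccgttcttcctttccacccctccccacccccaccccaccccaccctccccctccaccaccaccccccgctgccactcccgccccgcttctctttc
*Hilpda*, chr6:29272526-29272625, plus strand: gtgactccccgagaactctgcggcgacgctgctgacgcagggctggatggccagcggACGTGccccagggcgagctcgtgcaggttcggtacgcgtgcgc

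All 3 windows are rich in G and C (72%, 72% and 71%, where the median over the same window of all 32851 promoters is 55%). The window of *Hilpda*, from the second of its 2 listed starts, holds the hypoxia response core ACGTG 43 bases before the start. The promoter of its first listed start held no such match. Of all promoters of 300 bases, 19.6% hold this motif on either strand, with promoters of *Lipe* and *Mgll* among them. The promoters of *Pnpla2* and *G0s2* held none of the motifs searched. These were the hypoxia core, the cAMP response element TGACGTCA, the E-box CACGTG (which overlaps the hypoxia core), the FoxO motif GTAAACA, the C/EBP motif TTGCGCAA, TATAAA and the PPAR and RXR element DR1, all on both strands. Only exact copies were counted, and exact DR1 and C/EBP motifs occur in 0.04% and 0.18% of all promoters. Their absence here therefore says little, and inexact copies were not searched.

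*Lipe* (chr7:25379527-25398486) and *Mgll* (chr6:88724412-88828360), which encode the lipases of the next steps, were both higher. *Lipe* read 12.03, 12.14 and 12.06 in *ob/ob/Fsp27*-/- mice, against 10.77, 11.27 and 11.63 in *ob/ob* mice, a 1.81-fold difference. *Mgll* read 11.91, 11.94 and 12.04 in *ob/ob/Fsp27*-/- mice, against 10.57, 11.08 and 11.45 in *ob/ob* mice, a 1.91-fold difference. In both genes the *ob/ob/Fsp27*-/- arrays lay close together and the *ob/ob* arrays were spread out, with no overlap. On the log2 scale this was 0.85 for *Lipe* (standard error 0.20, adjusted p = 0.0171 from limma) and 0.93 for *Mgll* (standard error 0.21, adjusted p = 0.0134 from limma). *Lipe* missed the threshold when 1 of 3 arrays was left out, which were array 2 of *ob/ob* and arrays 2 and 3 of *ob/ob/Fsp27*-/- (the 6 fits gave adjusted p from 0.00421 to 0.0649), although its log2 fold change stayed between 0.63 and 1.05.

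*Mgll* minus *Lipe* was −0.12, −0.20 and −0.02 in *ob/ob/Fsp27*-/- mice, against −0.21, −0.20 and −0.18 in *ob/ob* mice. Of all 45 pairs among the 10 genes, *Lipe* and *Mgll* had the most alike profiles, with a root mean square difference of 0.066 between their mean-centred values over the 6 arrays, followed by *Pnpla2* and *Abhd5* with 0.075. The difference between genotypes enters each of these profiles.

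Both genes have an E-box in a promoter, shown here because the pair was the most alike of the 10. The motif CACGTG starts 155 bases before the first listed start of *Lipe* and 44 bases before that of *Mgll*, and 7.15% of all promoters hold it.

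*Lipe*, chr7:25396088-25396187, minus strand, 200 to 101 bases before the start: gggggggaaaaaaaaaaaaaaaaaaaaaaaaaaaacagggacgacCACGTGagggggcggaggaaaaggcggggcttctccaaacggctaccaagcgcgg
*Mgll*, chr6:88724312-88724411, plus strand, 100 to 1 bases before the start: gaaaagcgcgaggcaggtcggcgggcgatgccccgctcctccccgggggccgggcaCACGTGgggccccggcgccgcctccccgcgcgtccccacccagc

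The FoxO motif GTAAACA was found in the other listed promoter of *Lipe* and in this promoter of *Mgll*, upstream of the window printed. It occurs in 3.65% of all promoters. A match describes letters only and does not show that a factor binds.

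*Pnpla3* (chr15:84167776-84189521) encodes a lipid droplet protein of the same family as ATGL. It was 2.86-fold higher, with values of 10.98, 11.14 and 11.13 in *ob/ob/Fsp27*-/- mice, against 8.80, 9.58 and 10.33 in *ob/ob* mice. The *ob/ob* arrays differed among themselves more than for any other of the 10 genes (SD 0.76, against 0.089 in *ob/ob/Fsp27*-/- GWAT, n = 3 each). The log2 difference was 1.52 (standard error 0.34, 95% interval 0.72 to 2.32, adjusted p = 0.0144 from limma). Without *ob/ob/Fsp27*-/- array 2 it missed the threshold (adjusted p = 0.0563 from limma, with 0.00182 to 0.0563 over the 6 fits). Its log2 fold change was 1.13 without *ob/ob* array 1 and 1.897 without *ob/ob* array 3.

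The promoter of *Pnpla3* was the only one of the 12 with the full cAMP response element TGACGTCA, 46 bases before the start site. Of all promoters 1.79% hold it.

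*Pnpla3*, chr15:84167716-84167815, plus strand: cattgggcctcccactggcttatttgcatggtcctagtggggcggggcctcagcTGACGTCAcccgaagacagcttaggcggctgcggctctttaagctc

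*Ces1d* had the largest change of the 10 genes, and its relative *Ces1f* was also higher. *Ces1d* (chr8:93166072-93197804) encodes triacylglycerol hydrolase, an esterase of adipocytes and hepatocytes that was earlier called Ces3. It was 4.78-fold higher, with values of 11.64, 11.50 and 11.80 in *ob/ob/Fsp27*-/- mice, against 8.66, 9.57 and 9.93 in *ob/ob* mice. A gap of 1.58 parted the genotypes, the widest of the 10 genes. The log2 fold change of 2.26 (standard error 0.30, 95% interval 1.56 to 2.96, adjusted p = 0.00159 from limma) ranked 39 of 19937 from the largest rise down.

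*Ces1f* (chr8:93256236-93279766), near *Ces1d* and also known as a triacylglycerol hydrolase, was 2.82-fold higher. It read 9.20, 9.18 and 9.54 in *ob/ob/Fsp27*-/- mice, against 7.37, 8.02 and 8.03 in *ob/ob* mice, with a gap of 1.14 between the genotypes. Its log2 difference was 1.496 (standard error 0.20, 95% interval 1.03 to 1.97, adjusted p = 0.00165 from limma). *Ces1d* minus *Ces1f* was 2.44, 2.33 and 2.26 in *ob/ob/Fsp27*-/- mice, against 1.29, 1.55 and 1.89 in *ob/ob* mice. These ranges did not overlap, so *Ces1d* rose more than *Ces1f* by 0.76 on average, a comparison with no test.

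Other *Ces1* genes did not pass the test. *Ces1a*, *Ces1b*, *Ces1c*, *Ces1e* and *Ces1g* lay between 4.07 and 6.41 on the 6 arrays, and their log2 fold changes ran from −0.05 to 0.20 with none called. The median of all values was 6.07, so most of these readings were low and their lack of change says little. How far the probesets of *Ces1d* and *Ces1f*, which are closely related, tell the transcripts apart is not known here. Liver also expresses carboxylesterases. The liver gene *Alb* (albumin) read 7.93, 11.17 and 8.45 in *ob/ob/Fsp27*-/- mice, against 9.004, 11.55 and 9.73 in *ob/ob* mice. Array 2 had the highest *Alb* of each genotype. On that array *Ces1d* was the lowest of the 3 in *ob/ob/Fsp27*-/- and the middle value in *ob/ob* mice, and so was *Ces1f*. None of the 5 measured hepatocyte markers was called, and the part of liver RNA in the carboxylesterase values was not tested.

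*Aqp7* (chr4:41033074-41048237), which encodes the glycerol channel, had the smallest change of the 9 called genes, 1.61-fold, and its sign turned when arrays were centred on white adipocyte markers. It read 12.08, 12.002 and 12.18 in *ob/ob/Fsp27*-/- mice, against 11.04, 11.46 and 11.70 in *ob/ob* mice, with a gap of 0.30. The log2 fold change was 0.69 (standard error 0.17, 95% interval 0.30 to 1.08, adjusted p = 0.0191 from limma). It missed the threshold in the same 3 fits as *Lipe*, and the 6 fits gave adjusted p from 0.00768 to 0.0625.

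The 10 genes spread widely among the *ob/ob* arrays. The median SD of the 10 was 0.13 in *ob/ob/Fsp27*-/- and 0.36 in *ob/ob* GWAT, where the medians over all genes were 0.12 and 0.11. The SD was larger in *ob/ob* for 9 of the 10 genes, with *Hilpda* as the exception. In the same 9 genes *ob/ob* array 1 was the lowest and *ob/ob* array 3 the highest of the 3, and array 1 was the lowest for 34.2% of all genes, with array 3 the highest as well for 22.5%. *Hilpda* was highest on *ob/ob* array 1. Without that array the log2 fold changes of the 9 genes were smaller, 0.80 for *Pnpla2* and 1.896 for *Ces1d*, and all 9 still passed.

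Markers of some cell types in GWAT differed between the genotypes and those of others were not called. The mean of 12 white adipocyte markers was 12.13, 12.14 and 12.18 in *ob/ob/Fsp27*-/- mice, against 11.10, 11.56 and 11.77 in *ob/ob* mice, the same order of the *ob/ob* arrays as above. Their summed linear signal lay between 62158 and 64714 in *ob/ob/Fsp27*-/- and between 37563 and 52453 in *ob/ob* GWAT. Of the 12 markers 6 were higher and none was lower. Those not called included the leptin gene *Lep* (−0.22 on the log2 scale), *Cd36* (−0.12) and *Lpl* (0.07), in each of which the genotypes overlapped.

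Of 15 macrophage markers 14 were lower, their mean was 7.90, 8.11 and 8.10 in *ob/ob/Fsp27*-/- mice, against 10.55, 10.47 and 10.29 in *ob/ob* mice, and the summed linear signal lay between 5474 and 6265 in *ob/ob/Fsp27*-/- and between 27621 and 35755 in *ob/ob* GWAT. *Adgre1*, which encodes F4/80 of macrophages, read 8.28 to 8.37 in *ob/ob/Fsp27*-/- mice, against 11.48 to 11.58 in *ob/ob* mice. Of 8 endothelial markers 4 were higher and none lower (0 higher with white adipocyte centring), and their summed linear signal lay between 5788 and 6098 in *ob/ob/Fsp27*-/- and between 2879 and 4192 in *ob/ob* GWAT. Of 9 stromal markers 5 were lower, with summed signals of 7649 to 9064 in *ob/ob/Fsp27*-/- and 12715 to 13460 in *ob/ob* GWAT. None of 6 T cell or 5 mesothelial markers was called (medians −0.10 and 0.10 on the log2 scale). Of 5 B cell markers 1, *Blnk*, was lower (−2.95) and none was called higher. The other B cell markers had positive log2 fold changes that were not called, and the median of that list was 0.81. Of 5 skeletal muscle markers 1, *Myl1*, was higher (1.43) and none lower. Their summed signals were 881 to 1045 in *ob/ob/Fsp27*-/- and 502 to 592 in *ob/ob* GWAT. Of 8 epididymal and testicular markers 1, *Prm1*, was lower (−0.93) and none higher. The part of these cell types in the changes of the lipase genes was not tested.

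**Figure D2:**
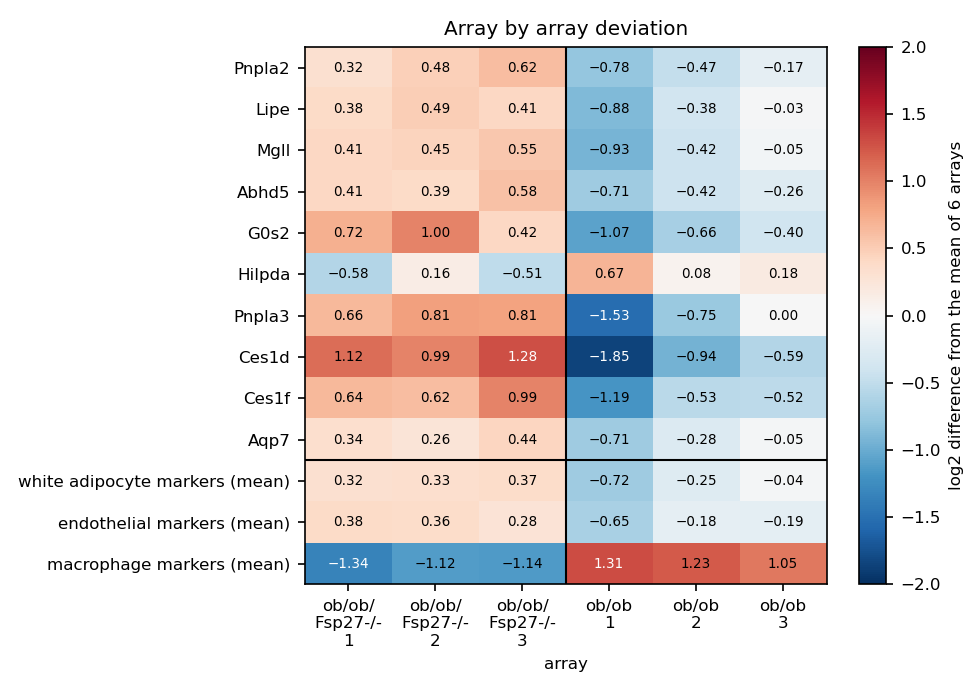
Difference in log2 value of each array from the mean of the 6 arrays, for the 10 genes and for the means of 12 white adipocyte, 8 endothelial and 15 macrophage markers. The 3 *ob/ob/Fsp27*-/- columns are positive for the 9 genes other than *Hilpda* (centring on white adipocyte markers turns the change of *Aqp7* negative), and *ob/ob* array 1 has the lowest values of those 9 genes and of the adipocyte and endothelial markers.

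Values were also taken relative to the white adipocyte markers. With each array centred on the median of the 12 markers, which moved the median log2 fold change of all genes by −0.84 and left 0.943% of genes called higher and 68.1% called lower, 5 genes stood near 0. These were *Pnpla2* at 0.11, *Mgll* at 0.10, *Abhd5* at 0.08, *Lipe* at 0.02 and *Aqp7* at −0.15, with adjusted p from 0.663 to 0.960 (limma), while their 12 settings with all arrays spanned 0.000839 to 0.960. The standard error was 0.32 for each of the 10 genes, so the p-values under this centring do not measure the spread of each gene. They can be smaller than from the deposited values although the change is smaller, and calls under this centring are read with that limit.

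*Ces1d* remained higher at 1.42 (adjusted p = 9.00e-05 from limma, 9.00e-05 to 0.00357 over its 12 settings with all arrays), and *Pnpla3* at 0.68 was just past the threshold (adjusted p = 0.0484 from limma, 0.00613 to 0.0484 over the 12). *Ces1f* at 0.66 and *G0s2* at 0.59 did not pass (adjusted p = 0.0547 and 0.0845 from limma, with 0.000794 to 0.0547 and 0.00108 to 0.0845 over the 12). *Hilpda* was lower at −1.46 (adjusted p = 5.59e-05 from limma, 5.59e-05 to 0.147 over the 12). Some of the marker genes encode proteins of triglyceride storage themselves, so this scaling describes the genes relative to those transcripts and not per cell. The markers *Plin1*, *Fabp4*, *Cd36*, *Dgat2*, *Pparg* and *Cebpa* are also members of the lists given below. The counts of those lists under this centring are therefore not independent of it.

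**Figure D3:**
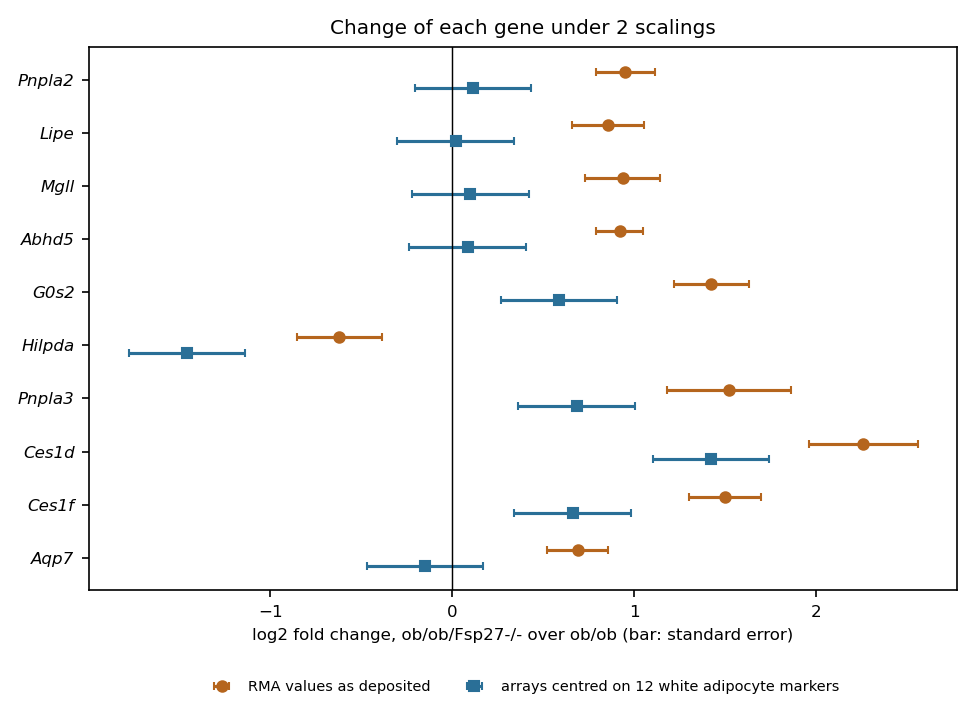
Log2 fold change of each gene in *ob/ob/Fsp27*-/- over *ob/ob* GWAT with its standard error, from the deposited values (brown circles) and with each array centred on the median of 12 white adipocyte markers (blue squares). In the centred values *Pnpla2*, *Lipe*, *Mgll* and *Abhd5* lie near 0 and *Aqp7* changes sign, while *Ces1d* stays above 1.

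The genes nearest to each profile in both pattern and size were found by the root mean square difference of mean-centred values over the 6 arrays. For *Lipe* the nearest of all other genes was *Plin1* (0.042), which encodes the droplet coat protein perilipin 1, then *Trarg1* (0.051), a gene of GLUT4 traffic in adipocytes, and *Acaa2* (0.052), a thiolase of mitochondrial fatty acid oxidation. *Pnpla2* was most like *Mrps7* (0.041), a mitochondrial ribosomal protein gene, *Gm10851* (0.042) and *1810010H24Rik* (0.043). *G0s2* was farther from its nearest genes, *Ormdl3* (0.077), *Vegfa* (0.12) and *Pccb* (0.13).

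Further lists hold the rest of the lipolytic system, and changes of their genes are given as the log2 fold change ± standard error (SE). Beside their counts, 9.58% of all genes were called higher and 10.8% lower. With white adipocyte centring 0.943% of all genes were called higher and 68.1% lower. Of 22 measured genes of its hormonal and cAMP control, 13 were higher and 2 lower (2 and 6 with white adipocyte centring), with a median of 0.74. *Ptger3*, a prostaglandin E receptor that restrains cAMP, had 2.06 ± 0.31, and *Pde3b*, the phosphodiesterase through which insulin lowers cAMP, 1.57 ± 0.16. *Npr2*, a natriuretic peptide receptor that makes cGMP, had 1.38 ± 0.22 and *Akap1*, an anchor of protein kinase A at mitochondria, 1.22 ± 0.17. The lower genes were *Gnai2* (−0.73 ± 0.08), an inhibitory G protein subunit, and *Prkacb* (−0.61 ± 0.13), a catalytic subunit of protein kinase A. With housekeeping centring *Prkacb* was no longer called (−0.40). The beta-adrenergic receptor genes and *Adra2a*, *Adora1*, *Gnas* and *Prkaca*, also of this list, were not analysed here.

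Of 16 transcription factors known to act on lipase genes, 10 were higher and none lower (3 and 5 with white adipocyte centring), with a median of 0.72. *Ppara* had 2.42 ± 0.27, its coactivator *Ppargc1a* 1.88 ± 0.13, the carbohydrate-responsive factor *Mlxipl* 1.55 ± 0.31 and *Srebf1*, a driver of fatty acid synthesis, 1.37 ± 0.19. *Pparg*, the master regulator of adipocytes and a known inducer of *Pnpla2* and *G0s2*, read 11.31, 11.31 and 11.37 in *ob/ob/Fsp27*-/- mice, against 10.67, 11.08 and 11.25 in *ob/ob* mice, and did not pass (adjusted p = 0.145 from limma) although the genotypes did not overlap. With housekeeping centring it was higher by 0.54 (adjusted p = 0.0296 from limma, 0.0296 to 0.154 over the scalings). With white adipocyte centring its sign turned, at −0.51, and it did not pass (adjusted p = 0.135 from limma). *Pparg* is itself among the markers used for that centring. *Hif1a*, of the hypoxia pathway that induces *Hilpda*, had a log2 fold change of −0.03 and did not pass (adjusted p = 0.878 from limma). *Epas1*, another hypoxia-inducible factor gene of the list, was higher by 0.65 (adjusted p = 0.00638 from limma). RNA of these factors does not measure the activity of the pathway. *Pparg*, *Hif1a* and *Epas1* are named here after their values were seen.

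Of 19 genes for the fate of glycerol and fatty acids, 11 were higher and 2 lower (1 and 5 with white adipocyte centring), with a median of 0.62. *Pck1*, which supplies glycerol phosphate for re-esterification, had 2.40 ± 0.27, and *Lpin1*, *Dgat1* and *Agpat2*, enzymes of triglyceride assembly, had 1.48 ± 0.25, 1.31 ± 0.17 and 1.29 ± 0.20. The acyl-CoA synthetase genes *Acsl5* (−1.57 ± 0.12) and *Acsl4* (−0.75 ± 0.20) were lower. Without *ob/ob* array 2 or either of the first 2 *ob/ob/Fsp27*-/- arrays, 1 gene was lower.

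Of 18 droplet partners of the lipases, 7 were higher and 1 lower (2 and 7 with white adipocyte centring), with a median of 0.33. *Cidea*, a relative of Fsp27 from brown fat, had 3.07 ± 0.27. *Plin5*, a perilipin that binds ATGL and CGI-58, had 1.96 ± 0.21, and *Fitm2* and *Plin4* had 1.17 ± 0.19 and 1.03 ± 0.25. *Plin1*, which holds CGI-58 in the resting adipocyte, read 12.17, 12.16 and 12.13 in *ob/ob/Fsp27*-/- mice, against 10.84, 11.30 and 11.73 in *ob/ob* mice. The droplet enzyme gene *Hsd17b11* was lower (−0.90 ± 0.21), a call lost in the same 3 fits as that of *Lipe*. In those that left out an *ob/ob/Fsp27*-/- array, the higher genes of this list numbered 4.

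The 30 other lipid hydrolases had 6 higher and 6 lower genes (1 and 18 with white adipocyte centring), where 9.58% and 10.8% of all genes were called. Only their median, 0.06, was that of all genes. The higher ones included *Abhd6*, a monoacylglycerol lipase (1.62 ± 0.20), *Plaat3*, the adipose phospholipase A2 (1.11 ± 0.22), *Pnpla8*, a mitochondrial phospholipase (0.86 ± 0.16), and *Lipg* (0.55 ± 0.10). The lower ones were led by *Nceh1*, the neutral cholesterol ester hydrolase of macrophages, which read 7.98, 7.80 and 7.74 in *ob/ob/Fsp27*-/- mice, against 11.41, 11.11 and 10.84 in *ob/ob* mice (−3.28 ± 0.15). *Daglb*, a diacylglycerol lipase, had −2.18 ± 0.11, *Lipa*, the acid lipase of the lysosome, −2.09 ± 0.13 and *Abhd12* −1.05 ± 0.11.

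The part of macrophages, whose markers were also lower, in these changes was not tested.

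**Figure D4:**
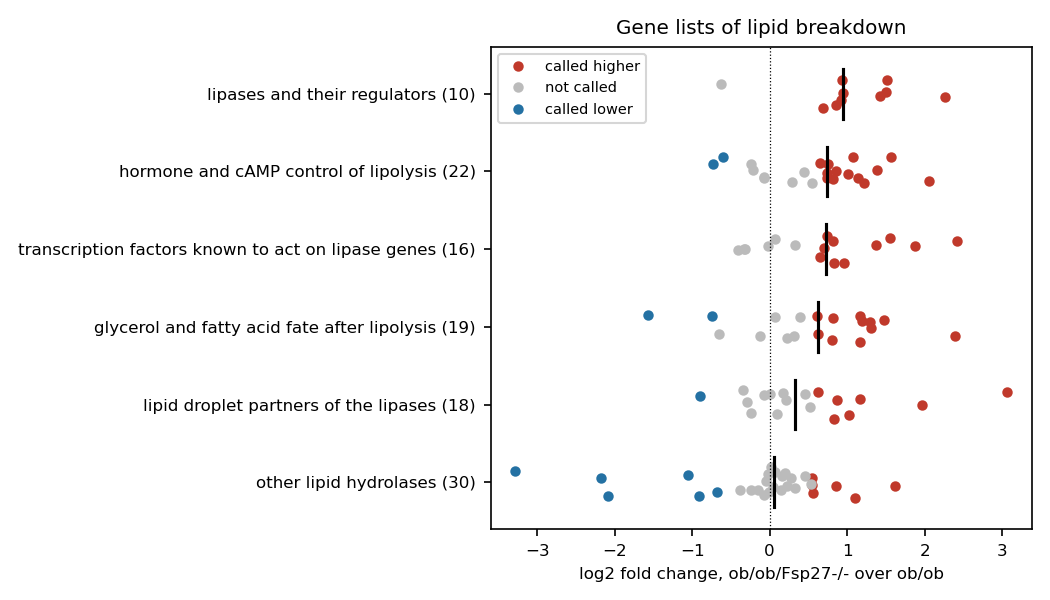
Log2 fold change in *ob/ob/Fsp27*-/- over *ob/ob* GWAT of each measured gene in 6 lists (number measured in brackets), with 1 point per gene, red if called higher, blue if called lower and grey if neither, and a black bar at the median of the list. The list of other lipid hydrolases has as many lower as higher genes, and its lower genes reach −3.28. With arrays centred on white adipocyte markers, *Aqp7* of the top list changes sign.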

How the data were processed

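The labels place 6 arrays in 2 genotypes, and arrays are numbered 1 to 3 within a genotype in accession order. The authors adjusted background, normalized by quantiles and summarized probes with RMA, and deposited log2 values (the sources used here give no version of RMA or of their limma). The detection filter of the methods needs single probes and was not repeated. Of 34760 probesets, the 22961 with at least 1 gene symbol were fitted in R 4.3.3 with limma 3.58.1 with genotype as the only term, and p-values were adjusted over all of them by the method of Benjamini and Hochberg. Counts are over 19937 genes with 1-symbol probesets, each at its highest-mean probeset. Entrez numbers matched 21553 probesets to RefSeq and changed no symbol. Named genes are the 10 genes, up to 4 called genes per list and direction, the 3 nearest profiles of *Pnpla2*, *Lipe* and *G0s2*, and defining markers. Genes and lists were chosen with earlier results of these data known. Arrays have no read depth, and 3 pools per genotype limit precision. p-values measure the spread between pools, except under white adipocyte centring, where the 10 genes shared the same standard error. Alternatives changed the scaling, filter, variance model, threshold and probeset rule, and left out each array. Plots and summaries used python 3.11.15, with matplotlib 3.10.9 for the plots.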

Additional observations from a re-analysis of the deposited data

How the results depend on the processing

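The 9 higher genes of the 10 numbered 9 under every setting with all arrays other than a log2 fold change of at least 1 (4 higher, where 3.27% of all genes were) and white adipocyte centring. White adipocyte centring gave 2 higher and 1 lower of the 10 genes, 1 higher and 18 lower of the other hydrolases, 2 and 7 of the droplet partners, 2 and 6 of hormonal control, 1 and 5 of glycerol and fatty acid fate and 3 and 5 of the transcription factors, and it reversed *Aqp7* to −0.15. Under that centring 0.943% of all genes were called higher and 68.1% lower. With the stricter fold threshold, 2 other hydrolases, 4 droplet partners, 7 genes each of hormonal control and of fate and 4 transcription factors were higher, and 0 droplet partners, 0 genes of hormonal control and 1 of fate were lower. Without a fold threshold 2 droplet partners were lower, and with housekeeping centring (a shift of all genes by 0.21) 1 gene of hormonal control was.

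Leaving out 1 array gave 6 to 9 higher and 0 to 1 lower of the 10 genes, 4 to 7 higher and 0 to 1 lower droplet partners, 1 to 2 lower genes of hormonal control and 1 to 2 of fate, and 4 to 7 higher and 6 to 7 lower other hydrolases. No other count moved by over 1.5 times. No paired analysis was possible because the labels share no replicate number between genotypes.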

Other observations

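Liver genes stood out on array 2 of both genotypes. The mean of 5 hepatocyte markers was 5.93, 7.93 and 5.99 in *ob/ob/Fsp27*-/- GWAT, against 6.28, 8.41 and 6.64 in *ob/ob* GWAT. The carboxylesterase gene *Ces1c*, which encodes a secreted esterase of liver, followed the same arrays with 4.07, 6.41 and 4.52 in *ob/ob/Fsp27*-/- mice, against 4.13, 5.999 and 5.002 in *ob/ob* mice. The genotypes overlapped in each of these. The brown and beige adipocyte markers averaged 7.68, 7.71 and 7.77 in *ob/ob/Fsp27*-/- mice, against 5.80, 5.97 and 6.24 in *ob/ob* mice, with 6 of 11 higher and none lower (5 higher and 2 lower with white adipocyte centring). *Ucp1*, the gene of the heat-producing uncoupling protein, was not among the called genes (0.40 on the log2 scale, adjusted p = 0.415 from limma).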
